A study of Homo sapiens with 6 samples.

Results

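The caspases CASP1, CASP2, CASP4, CASP6, CASP8 and CASP9, together with the caspase regulators CFLAR and XIAP, were described probe set by probe set in A549 cells in which the long noncoding RNA LINC00525 had been silenced. The genes were taken from a list of 8 symbols, and every probe set annotated to 1 of these symbols and to no other gene was used, which gave 44 of the 49372 probe sets of the array. A549 is an established human lung adenocarcinoma cell line. Arrays were available for 3 samples titled sh_LINC00525, called knockdown here, and 3 samples titled sh_ctrl, called control. The treatment text speaks of small interfering RNA against LINC00525 and of a scrambled negative control, whereas the titles carry the prefix "sh". The genotype field of knockdown replicate 1 names LINC00525, that of replicate 2 names LINC00526 and that of replicate 3 names LINC00527. All 6 samples were cultured in the same way, and the labels do not say whether replicates were separate cultures, so the p-values below rest on the spread among 3 arrays a group, and this may be technical spread.

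Caspases are proteases that lie dormant in the cell until they are brought together or cleaved. CASP8 is the initiator that death receptors such as FAS activate, CASP9 is the initiator that the apoptosome activates after mitochondria release cytochrome c, and CASP6 is one of the executioners that act after the initiators. CASP2 is activated on the PIDDosome platform, and CASP1 and CASP4 are the inflammatory caspases, which cleave gasdermin D and, in the case of CASP1, the precursor of interleukin 1 beta. CFLAR encodes cFLIP, a relative of caspase-8 without protease activity that joins the death receptor complex and restrains it, and XIAP is an inhibitor that binds active CASP9 and executioner caspases.

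The silenced transcript and the cell type were checked first. LINC00525 had log2 signals of 3.67, 3.45 and 3.54 on knockdown arrays, against 3.86, 3.74 and 3.97 on control arrays, a fall of 0.30 ± 0.0747 (SE, limma adjusted p = 0.0372 with 1 probe set for each gene). This probe set lay close to background: the 17 Tag probe sets, controls without a human target, averaged between 2.27 and 4.60 on the control arrays. The epithelial markers EPCAM, CDH1, KRT7, KRT8, KRT18 and KRT19 were all above that range, with KRT19 higher and KRT8 lower on knockdown arrays. Of 7 leukocyte markers 4 lay within or below it, among them the defining marker PTPRC, at 2.44 on knockdown arrays and 2.32 on control arrays. CD14 (6.19 on knockdown and 6.25 on control arrays) and ITGAX (5.90 and 5.97) lay above that range. CD3E (4.57 and 4.64) lay at its upper edge. None of the leukocyte markers, of 5 fibroblast markers or of 3 endothelial markers passed the limma test, although LUM and PECAM1 had an unadjusted p under 0.05. The mean level of the 7 leukocyte markers ranged from 4.38 to 4.47 on knockdown arrays and from 4.43 to 4.48 on control arrays.

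Across the 44 probe sets, 11 were higher and 3 were lower on the knockdown arrays at a limma adjusted p under 0.05. The adjustment ran over all 49372 probe sets, of which 9.89% passed, 4.64% as higher and 5.25% as lower. The higher probe sets belonged to CFLAR (5 of 9), CASP4 (4 of 7) and CASP1 (2 of 9), and the lower ones were the 3 of CASP2. None of the 8 probe sets of CASP8, the 5 of XIAP, the 2 of CASP9 or the 1 of CASP6 passed in the data as deposited. At an unadjusted limma p under 0.05 were that of CASP6, 2 of XIAP, 0 of CASP8 and 0 of CASP9. The share of all probe sets at this unadjusted threshold was not counted, so these numbers have no background to be read against. The median log2 change was 0.12 over the 44 probe sets and -0.01 over all probe sets. The knockdown and control arrays did not overlap at 22 of the 44, and at 28.7% of all probe sets. All changes are relative to the typical transcript of the array, and in a culture fewer cells that express a gene and less RNA per cell cannot be told apart.

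**Figure D1:**
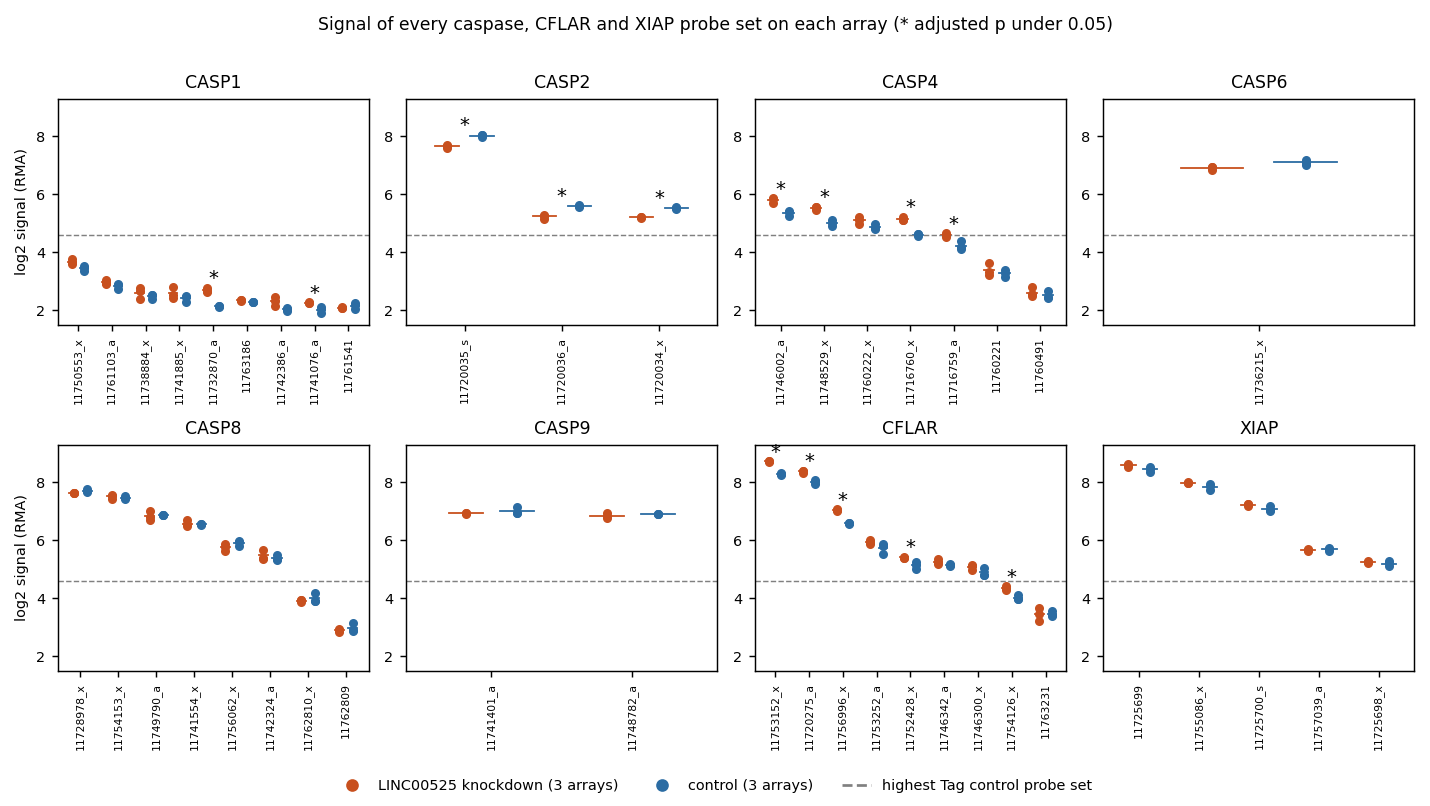
Log2 signal of all 44 probe sets, in 1 panel per gene and ordered by mean signal within it, on each of the 3 knockdown arrays (orange, left) and the 3 control arrays (blue, right), with short lines at the group means. Asterisks mark the 14 probe sets past the threshold, and the dashed line is the highest mean of the 17 Tag control probe sets, 4.60: all CASP1 probe sets lie below it, while those of CASP2 lie above it.

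CFLAR rose at its 3 brightest probe sets and at 2 dimmer ones in the data as deposited. Probe set 11753152_x_at had log2 signals of 8.72, 8.74 and 8.74 on knockdown arrays, against 8.31, 8.27 and 8.29 on control arrays. The knockdown arrays were all above the control arrays, with a gap many times the spread within either group, and the rise was 1.36-fold (log2 0.44 ± 0.0395 SE, limma adjusted p = 0.000508). Probe set 11756996_x_at stood at 7.06, 7.00 and 7.07 on knockdown arrays and at 6.59, 6.60 and 6.57 on control arrays, a 1.37-fold rise (log2 0.46 ± 0.0418, limma adjusted p = 0.000586). Probe set 11720275_a_at, whose suffix marks probes that all match transcripts of a single gene, was at 8.40, 8.40 and 8.34 on knockdown arrays and at 8.07, 7.96 and 8.02 on control arrays, a 1.29-fold rise (log2 0.36 ± 0.0466, limma adjusted p = 0.0031). At both, the lowest knockdown array stood above the highest control array. Probe set 11752428_x_at, also above the Tag range, was at 5.40, 5.41 and 5.44 on knockdown arrays and at 5.02, 5.26 and 5.14 on control arrays (log2 0.28 ± 0.0626, limma adjusted p = 0.0306), and the control arrays were more spread than the knockdown ones. Inside that range, with 1 of the 17 Tag probe sets above it, 11754126_x_at was at 4.42, 4.35 and 4.29 on knockdown arrays and at 4.10, 3.98 and 3.97 on control arrays (log2 0.34 ± 0.0551, limma adjusted p = 0.00893). The other 4 gave log2 changes of -0.003 to 0.21 that did not pass (limma adjusted p of 0.187 to 0.99).

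The CFLAR probe sets that did not pass were not shown to differ in their change from the brightest one. In a fit of the within-array difference between each probe set and the brightest of its gene, 0 of the 8 CFLAR differences passed after adjustment over all 26862 such pairs, of which 0.592% passed (limma), 0.186% as higher and 0.406% as lower. An unadjusted p under 0.05 was found for 4 of the 8, and for 4112 of all 26862 pairs. The smallest p was that of 11746342_a_at, whose log2 change was below that of the brightest by 0.32 (adjusted p = 0.0652, and 0.0411 when probe sets with a mean under 4 were left out). The rise of 11752428_x_at was lost on leaving out any array but control replicate 2 (adjusted p up to 0.0903). With each array shifted to equal bacterial hybridization controls, no CFLAR probe set passed as higher: the 5 called as deposited stood at 0.16, 0.18, 0.08, -0.005 and 0.06. There 1 CFLAR probe set, 11763231_at, was lower (-0.28), as were 40272 of all 49372 probe sets. Scaled to the poly-A controls, 4 CFLAR probe sets passed as higher and 0 as lower.

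CASP8, the protease that cFLIP restrains, did not pass at any probe set. Its brightest probe set, 11728978_x_at, had log2 signals of 7.62, 7.64 and 7.63 on knockdown arrays, against 7.69, 7.66 and 7.77 on control arrays. The groups did not overlap here, but the change of -0.08 ± 0.045 did not pass (limma adjusted p = 0.346), with a 95% confidence interval of -0.18 to 0.03. The next, 11754153_x_at, overlapped, with 7.54, 7.43 and 7.58 on knockdown arrays and 7.42, 7.48 and 7.53 on control arrays. Over all 8 probe sets the log2 change ran from -0.15 to 0.10, with 3 above zero and 5 below, and adjusted p-values ran from 0.274 to 0.944. Scaled to the hybridization controls 7 of the 8 were lower, and scaled to the poly-A controls 4 were. Of all 49372 probe sets 40272 and 20499 were lower under these scalings.

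The difference between CFLAR and CASP8 within an array does not depend on a constant shift of that array, such as the scalings to spiked controls. Taken between the brightest probe set of each gene, it was 1.10, 1.10 and 1.11 log2 units on knockdown arrays, against 0.62, 0.61 and 0.52 on control arrays. It averaged 1.10 ± 0.0058 on knockdown and 0.58 ± 0.0551 on control arrays (SD, n = 3 each), a difference of 0.52. An exact 2-sided permutation test gave p = 0.1, the smallest that 3 arrays against 3 allow. The comparison was chosen after the values were seen. In the order of RefSeq genes CFLAR, CASP10 and CASP8 are consecutive protein-coding genes of chromosome 2. CASP10, another death receptor initiator, lies between the other two and gave -0.03 ± 0.0577 on the log2 scale (limma adjusted p = 0.819).

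A promoter of CFLAR and a promoter of CASP8 are shown because CFLAR was called and its near neighbour CASP8 was not. RefSeq promoters (GRCh38.p14, 250 bases before to 50 after a transcript start) were available for 7 members, 16 in all. They were searched on both strands for the core of the interferon-stimulated response element (GAAA, NN, GAAA), the gamma-activated sequence (TTCNNNGAA) and the NF-kB motif, which 3.57%, 7.66% and 5.91% of all 35116 promoters hold. Capitals mark the matches, which are matches of letters and not evidence of binding. CFLAR has 4 of the promoters and CASP8 has 3, and for each gene only the promoter with a match is shown. In that of CFLAR, a match to the NF-kB motif begins 97 bases before the start. In that of CASP8, a match to the gamma-activated sequence begins 200 bases before the start. A match to the interferon-stimulated core begins 3 bases before it. The other 14 promoters, including the remaining ones of CFLAR and CASP8, hold none of the 3 motifs.
CFLAR promoter, chr2:201118466-201118765, plus strand: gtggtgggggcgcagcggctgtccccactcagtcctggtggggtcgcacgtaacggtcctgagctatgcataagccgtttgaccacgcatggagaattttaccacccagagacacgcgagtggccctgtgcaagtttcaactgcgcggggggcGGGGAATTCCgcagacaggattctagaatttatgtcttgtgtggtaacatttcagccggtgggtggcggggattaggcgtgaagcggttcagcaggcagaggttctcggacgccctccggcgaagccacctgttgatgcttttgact
CASP8 promoter, chr2:201233213-201233512, plus strand: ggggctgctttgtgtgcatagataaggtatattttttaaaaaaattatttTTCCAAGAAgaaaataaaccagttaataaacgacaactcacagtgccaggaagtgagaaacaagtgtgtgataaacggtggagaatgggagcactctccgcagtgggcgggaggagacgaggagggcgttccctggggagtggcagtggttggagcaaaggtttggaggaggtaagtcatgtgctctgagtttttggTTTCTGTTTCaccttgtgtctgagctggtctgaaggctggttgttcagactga

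In the mitochondrial branch, neither CASP9 nor XIAP passed. CASP9 probe set 11741401_a_at had 6.90, 6.96 and 6.94 on knockdown arrays, against 7.15, 6.94 and 6.93 on control arrays. Control replicate 1 was high and the other control arrays lay among the knockdown ones (log2 change -0.07 ± 0.0646, 95% confidence interval -0.22 to 0.08, limma adjusted p = 0.546). The second CASP9 probe set gave -0.06 ± 0.048 (adjusted p = 0.503). XIAP probe set 11725699_at had 8.59, 8.65 and 8.55 on knockdown arrays, against 8.35, 8.48 and 8.55 on control arrays, with control replicate 3 level with the lowest knockdown array. Its change was 0.14 ± 0.0599 (limma adjusted p = 0.206), and the probe sets 11755086_x_at and 11725700_s_at gave 0.13 ± 0.0546 and 0.14 ± 0.0594. The remaining ones gave -0.02 and 0.05. Both CASP9 probe sets were lower when scaled to either kind of spiked control, at -0.35 and -0.34 for the hybridization controls, where all 5 XIAP probe sets also lay below zero (-0.30 to -0.14) and 2 of them passed. With hybridization scaling 40272 of all 49372 probe sets were lower, and with poly-A scaling 20499 were. The within-array difference of XIAP minus CASP9 was 1.69, 1.69 and 1.61 on knockdown arrays and 1.20, 1.54 and 1.62 on control arrays, which overlap (exact 2-sided permutation p = 0.2).

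CASP2 fell at all 3 of its probe sets, and each kept its call under every alternative run that tested it. Of these runs, the scalings to spiked controls moved every change down, so they could only deepen a fall. Probe set 11720035_s_at had 7.68, 7.69 and 7.59 on knockdown arrays, against 7.98, 8.05 and 8.05 on control arrays, a 1.30-fold fall (log2 -0.37 ± 0.0473 SE, limma adjusted p = 0.00296). Probe set 11720036_a_at had 5.16, 5.25 and 5.30 on knockdown arrays and 5.62, 5.56 and 5.59 on control arrays (log2 -0.35 ± 0.0495, limma adjusted p = 0.00456). Probe set 11720034_x_at had 5.21, 5.19 and 5.23 on knockdown arrays and 5.56, 5.49 and 5.54 on control arrays (log2 -0.32 ± 0.0419, limma adjusted p = 0.00337). At each of them the highest knockdown array was below the lowest control array, and all 3 lay above the Tag controls. Leaving out single arrays gave log2 changes of -0.40 to -0.305, all past the threshold. Scaling to the hybridization controls, which moved every change by -0.28, gave -0.65 to -0.60. In that setting 40272 of all 49372 probe sets were lower. The PIDDosome scaffold genes PIDD1 and CRADD gave log2 changes of 0.02 ± 0.0708 and -0.10 ± 0.0424, neither past the threshold (limma adjusted p = 0.892 and 0.195).

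CASP6 was measured by a single probe set of its own, 11736215_x_at. It had 6.85, 6.94 and 6.94 on knockdown arrays, against 7.09, 7.19 and 7.03 on control arrays. The groups did not overlap, and the change of -0.19 ± 0.0547 lay just outside the threshold (limma adjusted p = 0.0644). It passed in the fit with an intensity trend (adjusted p = 0.0168), without dim probe sets (adjusted p = 0.0363) and in a fit with the probe sets of each gene averaged (adjusted p = 0.0362). It did not pass with 1 probe set for each gene (adjusted p = 0.0516), after cyclic loess (0.0899) or with a replicate block (0.0874). Nor did it pass without variance moderation (0.156) or on leaving out any single array (0.07375 to 0.188). Scaled to the hybridization controls it was -0.47. That scaling moved every change by -0.28, and 40272 of all 49372 probe sets were lower there. The pair of probe sets that CASP6 shares with its neighbour PLA2G12A gave -0.01 and -0.09 and did not pass (adjusted p = 0.927 and 0.392).

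CASP4, the human sensor of intracellular bacterial lipopolysaccharide, rose at 4 of 7 probe sets. Probe set 11716760_x_at had 5.10, 5.23 and 5.10 on knockdown arrays, against 4.56, 4.63 and 4.64 on control arrays, a 1.45-fold rise (log2 0.53 ± 0.0521 SE, limma adjusted p = 0.000811). Probe set 11748529_x_at had 5.58, 5.55 and 5.47 on knockdown arrays and 5.02, 5.12 and 4.90 on control arrays, a 1.43-fold rise (log2 0.52 ± 0.0633, limma adjusted p = 0.00243). The brightest, 11746002_a_at, had 5.85, 5.87 and 5.70 on knockdown arrays and 5.38, 5.24 and 5.44 on control arrays, a 1.37-fold rise (log2 0.45 ± 0.0681, limma adjusted p = 0.00615). In all 3 the groups stood clear of each other. Probe set 11716759_a_at had 4.66, 4.53 and 4.61 on knockdown arrays and 4.11, 4.38 and 4.17 on control arrays (log2 0.38 ± 0.0741, limma adjusted p = 0.0178), and its call was lost on leaving out knockdown replicate 1 or 3 or control replicate 1 or 3 (adjusted p up to 0.0691), and 1 of the 17 Tag probe sets was above it. The other 3 gave 0.09 to 0.22 (adjusted p of 0.108 to 0.628). Of these, 11760222_x_at passed with a replicate block (adjusted p = 0.0446), and 2, 11760221_at and 11760491_at, lay within the Tag range. None of the 6 differences from the brightest probe set passed (1 had an unadjusted p under 0.05, as did 4112 of all 26862 pairs). Scaled to the hybridization controls, 11716760_x_at and 11748529_x_at still rose, by 0.25 and 0.24, while the other calls were lost (0.17 and 0.10) and the uncalled probe sets turned negative (-0.19 to -0.06).

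CASP1 rose at 2 of 9 probe sets, all of which lay within or below the Tag range. Probe set 11732870_a_at had 2.68, 2.77 and 2.64 on knockdown arrays, against 2.14, 2.13 and 2.15 on control arrays, a 1.47-fold rise (log2 0.56 ± 0.0471 SE, limma adjusted p = 0.000387). The groups were widely separated, yet all 17 Tag control probe sets were above this probe set on control arrays and 10 were above it on knockdown arrays. Probe set 11741076_a_at had 2.25, 2.25 and 2.28 on knockdown arrays and 1.91, 2.05 and 2.11 on control arrays (log2 0.24 ± 0.0571, limma adjusted p = 0.0382), a call lost on leaving out any array but control replicate 3 (adjusted p up to 0.0967), with a replicate block (adjusted p = 0.0545) and under either scaling to spiked controls. The brightest probe set, 11750553_x_at, had 3.61, 3.67 and 3.76 on knockdown arrays, against 3.46, 3.54 and 3.36 on control arrays. Its change of 0.23 ± 0.0613 did not pass over all probe sets (limma adjusted p = 0.0554) and passed when 1 probe set stood for each gene (adjusted p = 0.0467). The other 6 ran from -0.08 to 0.27, with adjusted p-values of 0.0758 to 0.491. The highest of them, 11742386_a_at, passed in the fit with an intensity trend (adjusted p = 0.0244) and without knockdown replicate 3 (0.355, adjusted p = 0.0232). Scaled to the hybridization controls, 11732870_a_at rose by 0.28, 2 of the uncalled probe sets fell (as did 40272 of all 49372), and 11741076_a_at was at -0.04. A further probe set, shared with CARD16, gave 0.14 ± 0.0579 (adjusted p = 0.171).

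**Figure D2:**
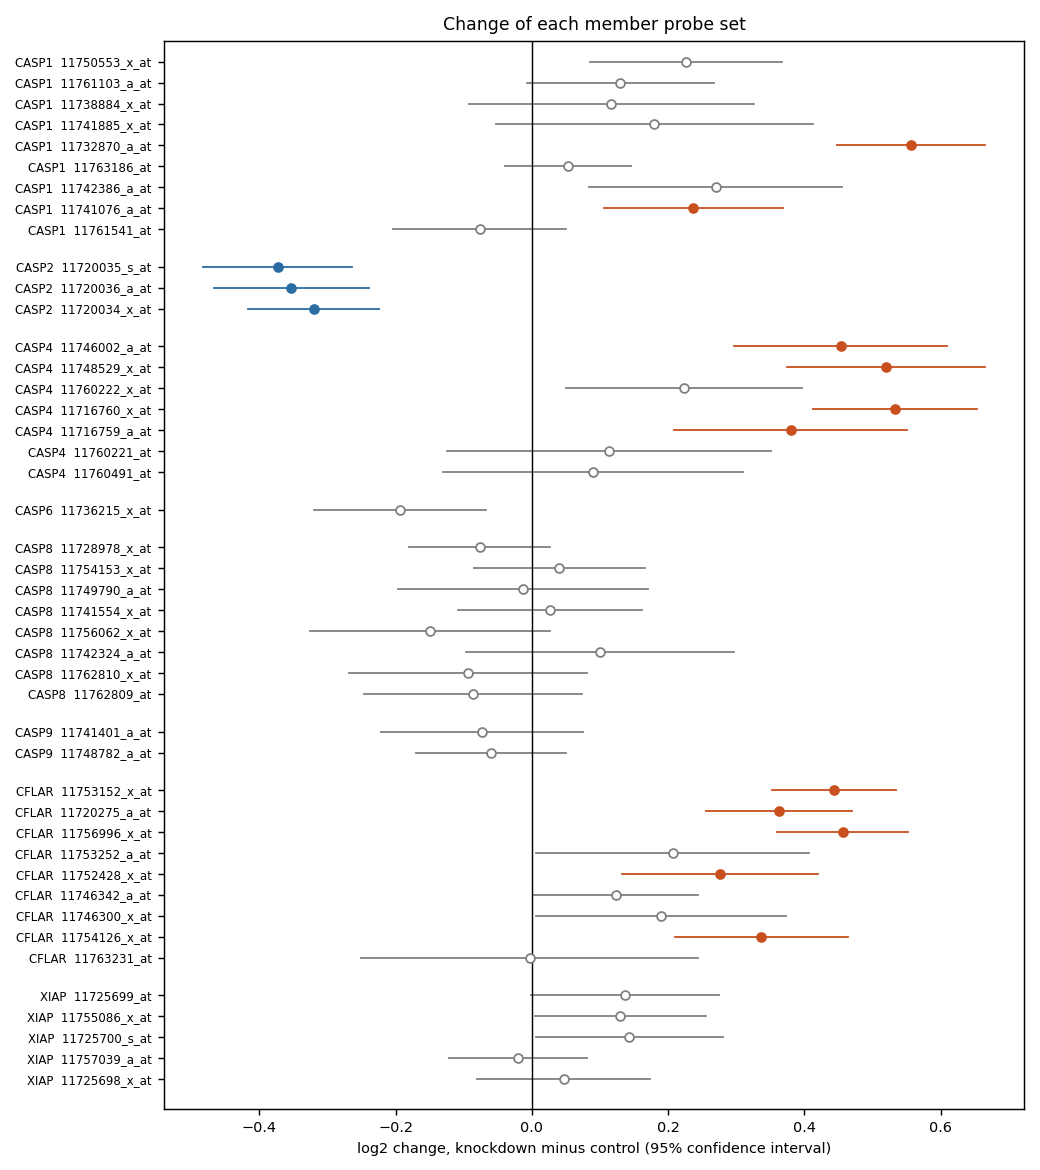
Log2 change of each of the 44 probe sets, knockdown minus control, with its 95% confidence interval from the limma fit, grouped by gene and ordered by mean signal. Filled orange points are the 11 probe sets that were higher and filled blue points the 3 that were lower at an adjusted p under 0.05, and open grey points did not pass: CFLAR and CASP4 points lie mostly to the right, CASP2 points to the left, and CASP8 points on both sides of zero.

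CASP4, CASP5, CASP1 and CARD16 follow each other in the order of RefSeq protein-coding genes on chromosome 11. CASP5, an inflammatory caspase close to CASP4 in sequence, gave 0.05 ± 0.0648 on the log2 scale (limma adjusted p = 0.692), and CARD16, which encodes a decoy of the CASP1 recruitment domain, 0.16 ± 0.08 (limma adjusted p = 0.245). Both lay within the Tag range, at 2.39 and 2.71 on knockdown arrays and 2.34 and 2.55 on control arrays. Of the 44 member probe sets 20 carry the suffix _x_at, which marks probes that can bind related transcripts. Of the 14 called member probe sets 7 carry it, 1 carries _s_at, for probes shared between transcripts, and 6 carry _a_at. Without probe sets of the first 2 kinds 5 member probe sets were higher and 1, of CASP2, was lower. The promoters of CASP4 and CASP2 are shown because these genes held calls in opposite directions, and neither holds any of the motifs searched, which says only that these letters are not in these windows.
CASP4 promoter, chr11:104968525-104968824, minus strand: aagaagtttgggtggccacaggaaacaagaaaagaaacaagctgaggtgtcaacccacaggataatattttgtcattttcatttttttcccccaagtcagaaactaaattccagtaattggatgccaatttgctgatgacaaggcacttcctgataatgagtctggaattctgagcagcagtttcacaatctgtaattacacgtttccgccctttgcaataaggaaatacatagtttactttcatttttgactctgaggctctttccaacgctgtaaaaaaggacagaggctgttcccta
CASP2 promoter, chr7:143288101-143288400, plus strand: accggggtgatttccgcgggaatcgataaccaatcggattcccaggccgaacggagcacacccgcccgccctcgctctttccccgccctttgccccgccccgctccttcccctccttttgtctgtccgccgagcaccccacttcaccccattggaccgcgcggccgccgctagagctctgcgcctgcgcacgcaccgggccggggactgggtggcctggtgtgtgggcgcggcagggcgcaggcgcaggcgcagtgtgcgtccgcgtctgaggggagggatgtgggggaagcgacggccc
The CASP4 promoter has a GC content of 39.7% and this CASP2 promoter one of 71.3%. A second CASP2 promoter, chr7:143289338-143289637, holds 43.0%, and the median is 55.3% over the 16 member promoters and 58.7% over all promoters.

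Around the members, the list of death receptor genes held the most rises in the data as deposited, and 1 of them when scaled to the hybridization controls. With 1 probe set for each gene, 12.6% of 18132 genes passed, 5.77% as higher and 6.83% as lower. Of 12 measured death receptors, ligands and adaptors 6 rose, 0 fell and 6 did not pass, with a median log2 change of 0.185, against -0.01 over all genes. TNFSF10, the death ligand TRAIL, had a mean log2 signal of 4.99 on knockdown arrays and 3.92 on control arrays, a change of 1.08 ± 0.111 (SE, limma adjusted p = 0.00117), and all 3 of its probe sets rose. On control arrays 1 Tag probe set was above the brightest of these, and the others averaged 2.99 and 2.83, within the Tag range. Its receptor gene TNFRSF10B rose by 0.36 ± 0.0379 and TNFRSF10A by 0.24 ± 0.0543, the death receptor FAS by 0.34 ± 0.0517, the deubiquitinase CYLD by 0.44 ± 0.0639 and the necroptosis effector MLKL by 0.23 ± 0.0372. In the fit over all probe sets, 3 of 3 passed for TNFRSF10B, 2 of 4 for CYLD and 1 of 2 for FAS. TNFRSF10A and MLKL had 1 each, which passed. FADD, the adaptor that links the receptors to CASP8, gave -0.05 ± 0.0469, and the kinase RIPK3 gave 0.02 ± 0.0422. The call of FAS was lost without knockdown replicate 3 (log2 0.25, adjusted p = 0.0575), and that of TNFRSF10A without any array but knockdown replicate 1. Scaled to the hybridization controls TNFSF10 kept its call (0.80), and the other 5 lost theirs: TNFRSF10B was at 0.08, FAS at 0.06, CYLD at 0.16, TNFRSF10A at -0.04 and MLKL at -0.05.

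Among inhibitors of apoptosis and the genes that oppose them, 2 of 8 rose, 1 fell and 5 did not pass, with a median log2 change of 0.06. XAF1, which encodes a protein that binds XIAP and antagonises it, had 5.45 on knockdown arrays and 4.63 on control arrays (log2 0.82 ± 0.0875, limma adjusted p = 0.00133), and all 7 of its probe sets passed as higher. Of these, 2 lay above the Tag range, at changes of 0.82 and 0.60, and the other 5 had control means of 2.23 to 2.91, within or below that range. The gene's value was 0.54 without knockdown replicate 1, where another of its probe sets was the brightest. BIRC2, which encodes cIAP1, rose by 0.31 ± 0.0477, a call lost under both scalings to spiked controls, and 4 of its 5 probe sets rose as deposited. BIRC5, which encodes survivin and is known for its part in cell division, fell by 0.19 ± 0.0366, and 8 of its 12 probe sets fell; its call was lost without knockdown replicate 2 or control replicate 2 or 3. The antagonists DIABLO and HTRA2, which mitochondria release, gave -0.03 ± 0.0446 and 0.03 ± 0.0394. Of 11 genes of the apoptosome and of mitochondrial permeabilisation 4 rose, 0 fell and 7 did not pass, with a median of 0. Among them the BH3-only genes BBC3 (PUMA) and PMAIP1 (NOXA), which promote permeabilisation, rose by 0.84 ± 0.0658 and 0.44 ± 0.0458, and MCL1 and BCL2L1, which oppose it, rose by 0.46 ± 0.0382 and 0.22 ± 0.049. In the fit over all probe sets, 2 of 2 passed for BBC3 and for PMAIP1, 2 of 6 for MCL1 and 2 of 3 for BCL2L1. The MCL1 probe sets ran from -0.003 to 0.46. The BCL2L1 call was lost without knockdown replicate 2 or 3 or control replicate 1 or 3, and its change was -0.06 when scaled to the hybridization controls. That scaling also ended the calls of PMAIP1 (0.16, adjusted p = 0.109) and MCL1 (0.18, adjusted p = 0.0769), while BBC3 kept its call (0.56). The changes of APAF1, the scaffold of the apoptosome, and CYCS, cytochrome c, were -0.10 ± 0.0733 and -0.02 ± 0.0351.

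Downstream and alongside the inflammatory caspases, 3 of 14 measured genes rose, 0 fell and 11 did not pass, with a median log2 change of 0.065. IL1A and IL1B, which encode interleukin 1 alpha and beta, rose by 0.89 ± 0.0921 and 0.49 ± 0.051 (limma adjusted p = 0.00119 and 0.00124). IL1A averaged 3.79 on control arrays, with 1 Tag probe set above it. GSDME, a gasdermin that executioner caspases cleave, rose by 0.25 ± 0.0396 and was at -0.03 when scaled to the hybridization controls. GSDMD, the gasdermin that CASP1 and CASP4 cleave, gave 0.07 ± 0.038 (limma adjusted p = 0.32), the inflammasome adaptor PYCARD 0.16 ± 0.0485 (limma adjusted p = 0.0786), and IL18, another CASP1 substrate, -0.08 ± 0.0583. Signals of 7 of these 14 genes lay below at least 1 Tag control. Of 7 execution-phase genes with a median of -0.09, 0 rose and 2 fell: ENDOG, a mitochondrial nuclease, by 0.20 ± 0.0465 and ACIN1, a chromatin-condensation factor, by 0.18 ± 0.0389. In the fit over all probe sets, 2 of 3 passed for ACIN1, and the 1 of ENDOG passed. The call of ENDOG was lost without any array but control replicate 3, and that of ACIN1 without knockdown replicate 2 or 3 or control replicate 2 or 3. Of 4 other caspases 0 passed in limma, and CASP14 alone had an unadjusted p under 0.05 (log2 -0.18 ± 0.0506, adjusted p = 0.0585). Over the 7 lists, 15 of 58 measured genes were higher and 3 lower, and 5 genes of the lists are not analysed here.

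**Figure D3:**
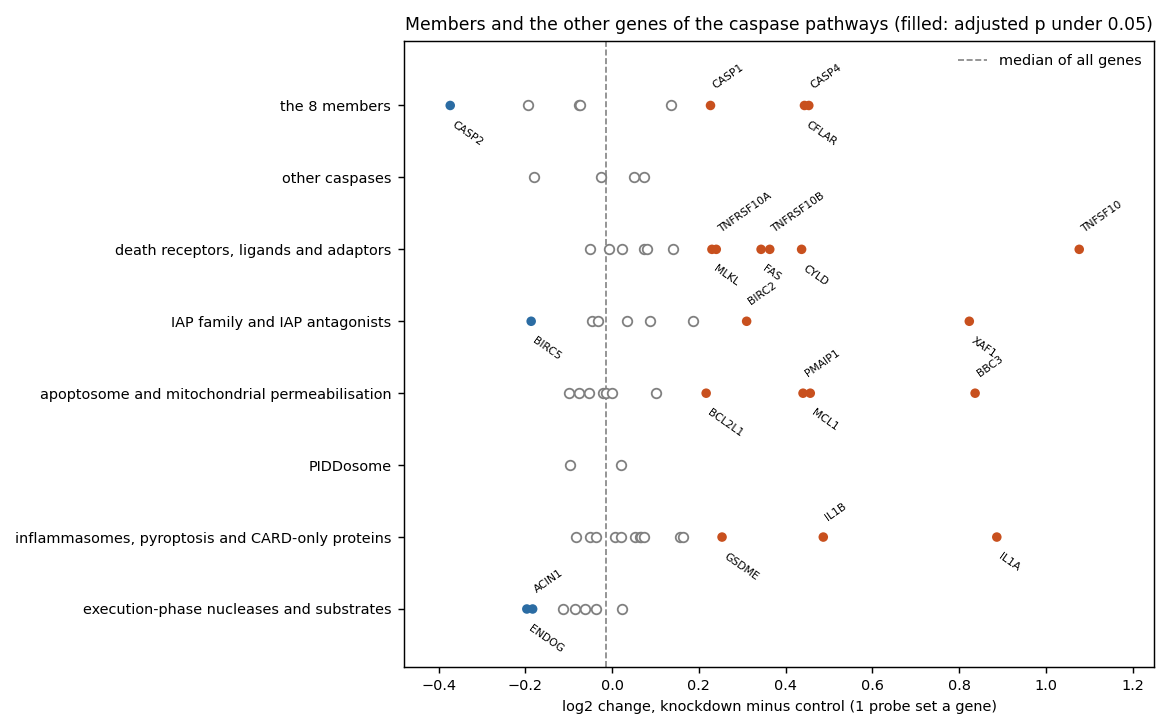
Log2 change, knockdown minus control, of the 8 members and of the 58 measured genes of 7 lists, with 1 probe set for each gene (that with the highest mean). Filled points are past the threshold (orange higher, blue lower) and named, open points are not, and the dashed line is the median of all genes at -0.01: TNFSF10, IL1A, BBC3 and XAF1 lie farthest to the right.

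The genes outside the members whose profiles came closest to a member were found by the root mean square distance between log2 values, each taken from its control mean, over the 6 arrays. For CASP1 probe set 11732870_a_at these were HAS3, CLDN1 and REC8, at distances of 0.0283 to 0.0298. For CASP4 probe set 11716760_x_at they were ITGA3, REC8 and GTPBP2 (0.0306 to 0.0337), and for CFLAR probe set 11756996_x_at HLA-E, SNHG32 and HLA-C (0.024 to 0.0298). With arrays of only 2 kinds, the measure mostly finds genes with a like shift between the groups: HLA-E, for example, had 8.27 on knockdown arrays and 7.84 on control arrays.

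How the members stood against zero depended on the scaling. Hybridization controls, bacterial transcripts added before hybridization, were higher on knockdown arrays, at 9.50 ± 0.0453, than on control arrays, at 9.22 ± 0.107 (SD, n = 3 each). Shifting the arrays to equalise them moved every change by -0.28, and doing so with the poly-A controls, which are added to the RNA before labelling, by -0.14. Of all called probe sets 46.9% were higher as deposited, 59% after cyclic loess, 5.5% when scaled to poly-A controls and 1.37% when scaled to hybridization controls. Among the 44 member probe sets the counts were 11 higher and 3 lower as deposited and after cyclic loess, 9 and 11 with poly-A scaling, and 3 and 18 with hybridization scaling. Over all 49372 probe sets they were 2289 higher and 2593 lower as deposited, and 2731 and 1896 after cyclic loess. With poly-A scaling they were 1194 and 20499, and with hybridization scaling 561 and 40272. As deposited, the brightest CASP4 and CFLAR probe sets lay above, and that of CASP2 below, the median of all probe sets. Scaling to spiked controls moves every change alike, so this order was fixed in advance there. Cyclic loess is not such a shift, and it gave 0.47 for CASP4, 0.48 for CFLAR and -0.34 for CASP2. The median of all probe sets was then 0.0001.

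**Figure D4:**
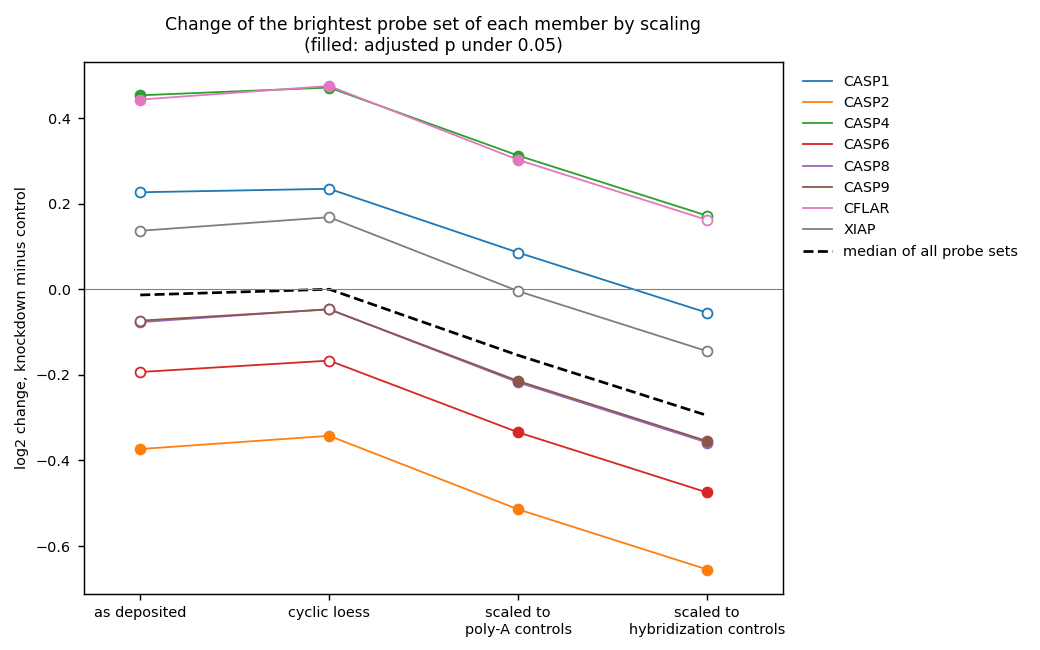
Log2 change, knockdown minus control, of the brightest probe set of each of the 8 members under 4 scalings of the arrays, with filled points past the threshold and the dashed line at the median of all 49372 probe sets. CASP4 and CFLAR lie above that line and CASP2 below it throughout, while CASP1 and XIAP lie below zero with hybridization scaling.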

How the data were processed

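Biotin-labelled cRNA, per the labels' protocols, from 3 knockdown and 3 control samples of A549 cells was measured on one-colour arrays. The deposited table holds log2 values of 49372 probe sets, made by the authors with RMA per the submitters' processing notes. Which software and version ran RMA was not given in the sources used here. Array medians were 5.10 to 5.11, so values were used as deposited, and a log2 difference is relative to the typical probe set. The number of arrays limits the precision.

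Gene names came from the array's annotation table: 44994 probe sets had 1 gene symbol, 1832 several and 2546 none listed, and symbols were updated by gene identifier where found (44967). Knockdown and control arrays were set against each other in limma 3.58.1 under R 4.3.3 (lmFit, then eBayes, 2-sided, all 6 arrays, no covariate), with Benjamini-Hochberg adjustment over all probe sets and a threshold of 0.05. For other pathway genes, the probe set with the highest mean stood for a gene, which gave 18132 genes. Differences between probe sets of 1 gene were fitted as within-array differences. Alternatives were cyclic loess, scaling to hybridization or poly-A controls, leaving out dim, ambiguous or cross-hybridizing probe sets, other variance models, averaging by gene, a replicate block and leaving out each array. The pipeline was tested on simulated data. Figures were drawn with matplotlib 3.10.9.

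The members and the 7 gene lists were chosen with earlier results of these data known. Named were all members, up to 4 passing genes of each list (all where 5 or fewer passed) and the 3 genes nearest in profile to each of 3 members. MLKL and TNFRSF10A, and the list genes given without a call, were named after their values were seen, as were the motifs and the differences between members. Same-numbered arrays did not deviate together (correlations of 0.0928, 0.0628 and -0.0075), and replicate numbers were therefore not used as pairs. Arrays of a group correlated at 0.998 to 0.999, and no pair shared over 4.81% of its values, so none was a copy of another.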

Additional observations from a re-analysis of the deposited data

How the results depend on the processing

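CASP2 kept its 3 calls wherever all its probe sets were tested, although the scalings to spiked controls could only deepen its fall. As deposited, 11 member probe sets were higher and 3 lower. Leaving out single arrays gave 8 to 10 higher and 3 lower. With the replicate number as a block, which was not taken to pair the samples, 11 were higher and 3 lower (CASP1 11741076_a_at was lost and CASP4 11760222_x_at gained), and of the list genes 14 were higher and 0 lower, against 15 and 3 without it. Without variance moderation 6 member probe sets were higher. After averaging all probe sets of each gene 3 member genes were higher and 2 lower, and with 1 probe set a gene 3 were higher and 1 lower, among 8 genes rather than 44 probe sets. Without _s_at and _x_at probe sets 5 were higher and 1 lower. Leaving out single arrays gave 12 to 16 list genes higher and 0 to 3 lower, with 0 lower without knockdown replicate 2 or control replicate 2. Differences between probe sets of a gene numbered 0 in each leave-out and 1 without dim probe sets (CFLAR 11746342_a_at).

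Scaled to hybridization controls, 3 member probe sets were higher and 18 lower, and 5 list genes were higher and 38 lower. Scaled to poly-A controls, 11 member probe sets and 20 list genes were lower. Of all 49372 probe sets 40272 were lower with hybridization scaling and 20499 with poly-A scaling. Under hybridization scaling these changes turned: CASP1 11750553_x_at -0.055, 11761103_a_at -0.15, 11738884_x_at -0.16, 11741885_x_at -0.10, 11763186_at -0.23, 11742386_a_at -0.0115 and 11741076_a_at -0.045, CASP4 11760222_x_at -0.058, 11760221_at -0.17 and 11760491_at -0.19, CASP8 11754153_x_at -0.24, 11741554_x_at -0.25 and 11742324_a_at -0.18, CFLAR 11753252_a_at -0.075, 11752428_x_at -0.0048, 11746342_a_at -0.16 and 11746300_x_at -0.0915, XIAP 11725699_at -0.14, 11755086_x_at -0.15, 11725700_s_at -0.14 and 11725698_x_at -0.23, and TNFRSF10A -0.0415, MLKL -0.0515, BCL2L1 -0.065 and GSDME -0.028. Under poly-A scaling these turned: CASP1 11761103_a_at -0.011, 11738884_x_at -0.024 and 11763186_at -0.088, CASP4 11760221_at -0.028 and 11760491_at -0.051, CASP8 11754153_x_at -0.10, 11741554_x_at -0.11 and 11742324_a_at -0.041, CFLAR 11746342_a_at -0.018, and XIAP 11725699_at -0.0043, 11755086_x_at -0.011 and 11725698_x_at -0.094. Under cyclic loess CASP8 11749790_a_at was 0.012 and CFLAR 11763231_at 0.0038. Leaving out single arrays turned probe sets that had not passed, within -0.0017 to 0.17 for CASP4 11760491_at, -0.0033 to 0.19 for CASP4 11760221_at, -0.033 to 0.072 for CASP8 11741554_x_at, -0.105 to 0.065 for CASP8 11749790_a_at, -0.115 to 0.115 for CFLAR 11763231_at and -0.005 to 0.085 for XIAP 11725698_x_at. Under the spiked-control scalings the turn follows from the shift itself; for the other settings the cause was not tested. Signal near the Tag controls limits all CASP1 probe sets.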
